A study of Mus musculus with 27 samples.

Results

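The 10 genes described here, Itga1, Itga2, Itga3, Itga5, Itga6, Itgav, Itgb1, Itgb4, Itgb5 and Itgb6, encode subunits of integrins, and were taken from the 27 integrin subunit genes among the 22524 genes counted in each library. They were chosen by measured values: their transcript levels differed between organoids, m-ICc12 cells and fibroblasts, and Itga2 differed by TNF label in m-ICc12 cells in another way than in organoids. The values from these comparisons therefore chose the genes, and they are given as a description. Where the 10 genes are counted by the fit over all genes in these comparisons, the count follows from the choice and is no test of it. The comparisons between mouse facilities had no part in the choice.

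RNA was sequenced from 27 libraries of cultured mouse cells. Organoid cultures were established from the distal jejunum of 9 wild-type C57BL/6J mice, 3 per facility, of which SR and SE were specific pathogen-free (SPF) and GF was germ-free, and the donors of a facility were male littermates housed together and 8 to 12 weeks old. The organoids were grown in Matrigel, a basement membrane extract rich in laminin, and were harvested at passages 5 to 8. m-ICc12 cells are an immortalised epithelial line from the mouse small intestine, and mouse embryonic fibroblasts (MEFs) served as cells of a non-epithelial kind. Each of the 9 organoid cultures gave 1 library labelled untreated and 1 labelled as treated with 5 ng/mL tumour necrosis factor (TNF) for 8 hr. The m-ICc12 line gave 3 libraries of each label, numbered M1 to M3, and 3 libraries came from untreated MEFs. Nothing in the sources used here says that the 3 m-ICc12 or the 3 MEF libraries came from separate cultures, so p-values that rest on them measure the spread between these libraries, which may be technical.

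Integrins are receptors that link the cytoskeleton to the extracellular matrix, each built of 1 alpha and 1 beta subunit. The beta subunit Itgb1 pairs with many alpha subunits and, by its partner, binds laminin, collagen or fibronectin. Itgb4 pairs only with Itga6 and anchors epithelial cells to laminin in hemidesmosomes, while Itgav with Itgb5 or Itgb6 binds ligands with the Arg-Gly-Asp motif, and the pair of Itgav and Itgb6, typical of epithelia, also activates latent TGF-beta. In the small intestine the laminin receptors hold the epithelium on its basement membrane.

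The names of the deposited data and the labels of the samples gave opposite treatments in all 12 pairs of organoid and m-ICc12 libraries. Groups are named by the sample labels throughout. The TNF targets Nfkbia, Nfkb2 and Tnfaip3 had less transcript under the TNF label in 9 of 9 organoid cultures and in 3 of 3 pairs of m-ICc12 libraries of the same number, with a mean log2 difference for Nfkbia of -2.65 ± 0.12 (SD, n = 9) and -2.15 ± 0.71 (SD, n = 3). The paper reports Nfkb2 protein as raised by TNF in organoids, and names Nfkb2 and Tnfaip3 among known targets whose transcripts changed. Read by the names of the deposited data, the 3 targets had more transcript with TNF. An exchange of the treatment within pairs would turn the sign of each TNF difference given below and leave its size. Each is thus a difference by label, from which no direction of the response to TNF is read. The organoid and m-ICc12 libraries labelled untreated would then be the treated ones. In that case the levels and comparisons between kinds and between facilities below would rest on treated libraries, set against untreated MEFs. Counts on genes per library lay between 6071103 and 43843615 with a median of 30339856. The shallowest was the m-ICc12 library M1 labelled TNF-treated, in which the single gene Lars2 held 13.5% of the counts, and Lars2 held 4.44% in M3 labelled TNF-treated against at most 0.552% in the organoid libraries. The summed level of 12 epithelial markers was 6081 to 7248 CPM (read counts scaled to the size of the library) in organoids labelled untreated, 2316 to 2817 in m-ICc12 cells and 9.69 to 15.1 in MEFs. The m-ICc12 libraries thus carried the keratin Krt8 at 1383 ± 227 CPM (SD, n = 3), but the epithelial markers Epcam at 4.36 ± 2.37 and Cdh1 at 1.497 ± 0.49, the intestinal factors Cdx1 at 0.98 ± 0.41 and Cdx2 at 0.25 ± 0.14, and the mesenchymal filament Vim at 2509 ± 600 CPM. MEFs carried Vim at 2467 ± 115 and Col1a1 at 2076 ± 305 CPM (SD, n = 3), while the fibroblast markers Thy1, Dcn and Pdgfra had 0, 0.075 ± 0.13 and 0.79 ± 0.73 CPM. Of 4 leukocyte markers, the summed level was at most 17.99 CPM in any library labelled untreated, and Ptprc and Cd3e had no more than 3 counts in any organoid library labelled untreated.

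Of the 10 genes, 3 show the range of patterns, so the 250 bases before their transcription start are printed here, from RefSeq on GRCm38.p6 and on the strand of the gene, with each CG dinucleotide in capitals. Itga2 (ENSMUSG00000015533, chr13:114932101-114932350, minus strand) was nearly absent from MEFs, Itga5 (ENSMUSG00000000555, chr15:103366792-103367041, minus strand) was nearly absent from organoids, and Itgb1 (ENSMUSG00000025809, chr8:128685404-128685653, plus strand) was high in each kind of culture.
Itga2: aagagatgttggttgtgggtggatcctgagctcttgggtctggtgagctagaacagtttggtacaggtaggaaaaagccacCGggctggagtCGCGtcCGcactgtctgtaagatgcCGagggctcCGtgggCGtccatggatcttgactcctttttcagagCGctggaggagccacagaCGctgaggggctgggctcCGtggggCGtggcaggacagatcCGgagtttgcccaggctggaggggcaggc
Itga5: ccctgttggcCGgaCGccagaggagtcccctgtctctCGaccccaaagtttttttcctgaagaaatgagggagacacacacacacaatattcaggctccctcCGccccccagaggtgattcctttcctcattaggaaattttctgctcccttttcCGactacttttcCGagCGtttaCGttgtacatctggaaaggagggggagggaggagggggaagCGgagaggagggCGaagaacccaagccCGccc
Itgb1: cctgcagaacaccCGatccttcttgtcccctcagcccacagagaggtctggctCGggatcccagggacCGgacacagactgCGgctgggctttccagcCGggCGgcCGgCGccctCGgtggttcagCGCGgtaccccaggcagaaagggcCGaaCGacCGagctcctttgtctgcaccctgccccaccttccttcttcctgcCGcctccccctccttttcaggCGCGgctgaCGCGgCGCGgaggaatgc
The window of Itgb1 held 21 CG dinucleotides, more than 83.7% of the 32851 promoter windows of this length, where the median window held 6. Those of Itga2 and Itga5 held 12 and 11. Itgb6 had a window with 11 and another with 3. RefSeq windows were at hand for 8 of the 10 genes, 10 windows in all. The binding motif of NF-kB, the factor activated by TNF, was found on neither strand of any of the 10 windows, and in 7.25% of all windows. The AP-1 motif TGANTCA was absent from the same 10 windows and present in 6.75% of all windows. At such shares 10 windows are too few, so nothing is read from either absence. The GC box GGGCGG occurred on either strand in 32.7% of all windows, and it was present at Itga3, Itga5, Itgb1 and Itgb5 and absent at Itga1, Itga2, Itgav and Itgb6.

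Transcript levels are given as CPM scaled by the trimmed mean of M-values (TMM) over all 27 libraries. In bulk RNA, fewer cells of a type and less RNA per cell cannot be told apart. Of the laminin receptor subunits, the organoids stood out by Itgb4, and m-ICc12 cells by Itga3. Itga3, the laminin-binding partner of Itgb1, ranged from 122 to 179 CPM (median 136) over the 9 organoid libraries labelled untreated. In m-ICc12 cells Itga3 had 852, 670 and 1000 CPM in M1, M2 and M3 labelled untreated, and in MEFs it had 365, 412 and 309 CPM. The organoid values thus lay below those of both other kinds without overlap, and the mean in m-ICc12 cells was 5.94-fold that of organoids. Itga6, the alpha subunit of the hemidesmosome, ranged from 171 to 231 CPM (median 212) in organoids labelled untreated. In m-ICc12 cells Itga6 had 173, 231 and 152 CPM, which overlapped the organoid range, and in MEFs 51.3, 57.2 and 29.1 CPM, which lay below it. Itga6 was the only one of the 10 subunits whose ranges overlapped between organoids and m-ICc12 cells labelled untreated.

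Itgb4, which gives Itga6 its link to keratin filaments, ranged from 111 to 181 CPM (median 141) in organoids labelled untreated. In m-ICc12 cells Itgb4 had 32.7, 21.0 and 25.6 CPM, and in MEFs 0.26, 0.23 and 0.50 CPM on 9 to 13 counts. The 3 kinds did not overlap, with a mean in organoids 5.25-fold that of m-ICc12 cells. Itgb4 was the only one of the 10 that was higher in organoids than in m-ICc12 cells without overlap. Per kilobase of exon, the ratio of Itgb4 to Itga6 within a library was 0.89 ± 0.23 (SD, n = 9) in organoids, 0.19 ± 0.066 (SD, n = 3) in m-ICc12 cells and 0.011 ± 0.0093 (SD, n = 3) in MEFs. The level of Itga6 in m-ICc12 cells thus overlapped that of organoids, while Itgb4, its partner in hemidesmosomes, was lower. The Itga6 ranges overlapped without M2 too, with 172.5 CPM in M1 against 171.2 CPM in the lowest organoid library. Without M2 the fit over all genes counted 2 of the 10 subunits as higher in organoids and 8 as lower, which is no test. Itga6 was then among those higher in organoids. Itgb1, the common beta subunit, ranged from 209 to 298 CPM (median 253) in organoids labelled untreated. In m-ICc12 cells Itgb1 had 571, 681 and 728 CPM, and in MEFs 1264, 1317 and 1030 CPM, so that the order was organoids, m-ICc12 cells and MEFs without overlap.

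The collagen receptor subunits Itga1 and Itga2, which both pair with Itgb1, were highest in m-ICc12 cells labelled untreated. Itga1 ranged from 7.84 to 25.1 CPM (median 18.6) in organoids. In m-ICc12 cells Itga1 had 105, 165 and 79.4 CPM, a mean 6.53-fold that of organoids, and in MEFs 4.01, 2.56 and 1.26 CPM. Its ranges did not overlap between any of the 3 kinds. Itga2 ranged from 8.26 to 26.8 CPM (median 22.03) in organoids labelled untreated. In m-ICc12 cells Itga2 had 45.2, 47.5 and 57.8 CPM in the libraries labelled untreated, above every organoid library of that label. In MEFs Itga2 had 5, 3 and 1 counts in the 3 libraries, at most 0.12 CPM. With the libraries of the other label, the order of organoids and m-ICc12 cells turned, since Itga2 ranged from 22.9 to 36.6 CPM (median 27.1) in organoids labelled TNF-treated and had 13.2, 11.9 and 18.1 CPM in m-ICc12 cells with that label. The log2 difference of organoids from m-ICc12 cells was accordingly -1.36 ± 0.26 (SE) in the former libraries and 0.99 ± 0.21 (SE) in the latter. Of the subunits whose ranges did not overlap between organoids and m-ICc12 cells labelled untreated, only Itga2 turned its direction. For Itga6, whose ranges overlapped, the means were 204 CPM in organoids and 185 CPM in m-ICc12 cells labelled untreated. Under the TNF label they were 214 and 231 CPM. Itga1 and Itga2 are neighbours on the minus strand (chr13:114953096-115101964 and chr13:114833081-114932100, GRCm38).

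Of the subunits that bind the Arg-Gly-Asp motif, Itga5, Itgav and Itgb5 were highest in MEFs and Itgb6 was nearly absent from them. Itga5, which with Itgb1 forms the fibronectin receptor, ranged from 0.10 to 2.14 CPM (median 0.41) in organoids labelled untreated, and 3 of these 9 libraries had no more than 3 counts. In m-ICc12 cells Itga5 had 34.5, 38.2 and 38.1 CPM, and in MEFs 353, 375 and 265 CPM. Organoids thus held next to none of the fibronectin receptor alpha transcript, and the mean in MEFs was 8.95-fold that of m-ICc12 cells. Itgav, the alpha subunit of the vitronectin receptors, ranged from 19.3 to 40.3 CPM (median 27.4) in organoids. In m-ICc12 cells Itgav had 203, 228 and 221 CPM, and in MEFs 479, 555 and 380 CPM. Itgb5 followed the same order with 5.24 to 14.5 CPM (median 6.22) in organoids, 45.9, 38.6 and 49.99 CPM in m-ICc12 cells and 156, 179 and 131 CPM in MEFs. For Itga5, Itgav and Itgb5 no range overlapped between kinds. Itgb6, whose protein is found in epithelia, ranged from 12.5 to 25.4 CPM (median 15.4) in organoids and had 67.4, 75.2 and 64.3 CPM in m-ICc12 cells. Each MEF library had 2 counts of Itgb6, so that against a floor of 3 counts per library its mean was at least 152-fold higher in organoids and at least 602-fold higher in m-ICc12 cells. Itgav therefore stood beside both Itgb5 and Itgb6 in organoids and m-ICc12 cells and beside Itgb5 alone, among these beta subunits, in MEFs. Per kilobase, Itgb6 stood at 0.93 ± 0.21 of Itgav (SD, n = 9) in organoids and at 0.48 ± 0.035 (SD, n = 3) in m-ICc12 cells labelled untreated.

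**Figure D1:**
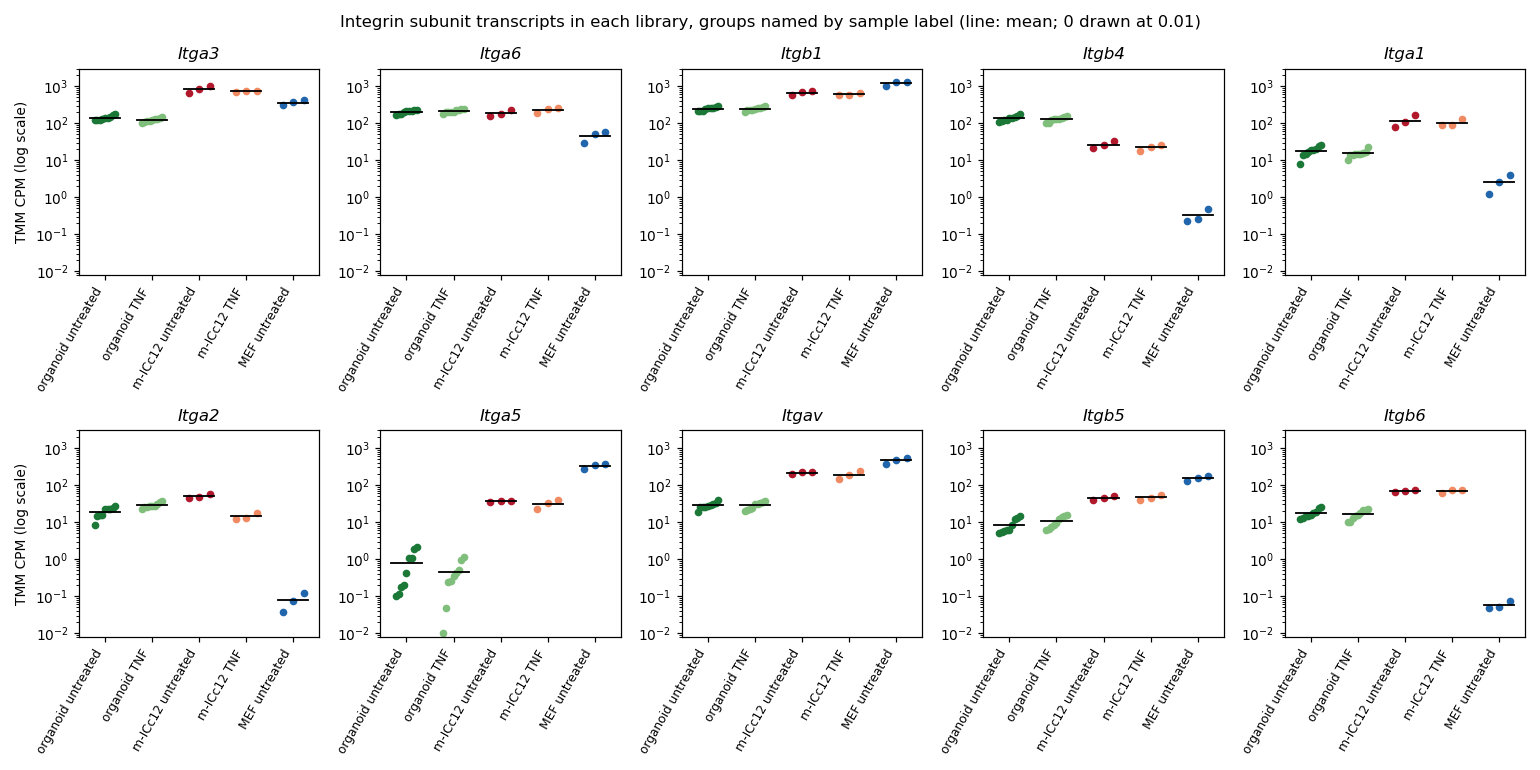
TMM-scaled CPM of the 10 integrin subunits on a log scale, 1 point per library and a line at the group mean, for organoids and m-ICc12 cells labelled untreated (9 and 3 libraries) or TNF-treated (9 and 3) and MEFs (3). Itgb4 falls from organoids to MEFs, Itga5 and Itgav rise, Itga2 and Itgb6 lie near 0 in MEFs, and of the organoid and m-ICc12 groups Itga2 is lowest in m-ICc12 cells labelled TNF-treated.

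Of all genes tested, 60.9% differed between organoids and m-ICc12 cells labelled untreated, 67.2% between organoids and MEFs and 59.3% between m-ICc12 cells and MEFs (edgeR quasi-likelihood test, Benjamini-Hochberg adjusted p under 0.05). By the same criterion 1 of the 10 subunits was higher and 8 were lower in organoids than in m-ICc12 cells, where 31.6% of all genes were higher and 29.3% lower. Against MEFs 5 were higher and 5 lower in organoids (34.6% and 32.6% of all genes), and 6 were higher and 4 lower in m-ICc12 cells (28.1% and 31.2% of all genes). These counts follow from how the genes were chosen. All 10 passed the filter on low counts in each comparison, but Itga2 and Itgb6 passed it against MEFs only through the organoids or m-ICc12 cells, where they are high, and such a gene had to differ. The median log2 difference of the 10 was -2.17 between organoids and m-ICc12 cells, where the median of all genes was 0.026. In the choice of genes there was no threshold on a value.

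Levels of different genes were compared per kilobase of exon. In organoids labelled untreated Itgb1 led with a mean of 60.4 CPM per kb, above the ranges of all others, and was followed by Itga3, Itga6 and Itgb4 with 24.8, 22.6 and 19.8, each overlapping the next. After a wide gap came Itga2, Itgav, Itgb6 and Itgb5 between 2.71 and 2.40, which did not differ beyond their spread, and then Itga1 with 0.96 and Itga5 with 0.16 CPM per kb. In m-ICc12 cells Itgb1 and Itga3 overlapped at 162 and 147 CPM per kb, and Itga6 and Itgav overlapped at 20.5 and 20.2. In MEFs the order began with Itgb1 at 295 CPM per kb, Itga5 at 67.0 and Itga3 at 63.3, of which the last 2 overlapped.

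Set against all 27 subunit genes, the laminin receptors held most of the alpha signal in organoids. Itga3 made up 43.9% ± 4.6 and Itga6 40.1% ± 3.6 (SD, n = 9) of the summed alpha subunit CPM per kb. In m-ICc12 cells Itga3 alone made up 69.0% ± 6.7 (SD, n = 3) and Itga6 9.89% ± 3.2. In MEFs Itga5 held 35.3% ± 1.1, Itga3 33.5% ± 1.2 and Itgav 23.1% ± 0.51 (SD, n = 3). Among the beta subunits Itgb1 held 70.8% ± 5.1 in organoids, 76.5% ± 2.7 in m-ICc12 cells and 86.6% ± 0.58 in MEFs, and the second place went to Itgb4 with 23.4% ± 4.2 in organoids and to Itgb5 with 12.8% ± 0.56 in MEFs. In m-ICc12 cells the second beta subunit was Itgb3, which was no member of the 10 genes, with 8.25% ± 0.70. The 6 alpha members together made up 95.5% ± 1.4 of the alpha signal in organoids, and the 4 beta members 99.9% ± 0.085 of the beta signal there and 89.0% ± 1.3 in m-ICc12 cells.

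**Figure D2:**
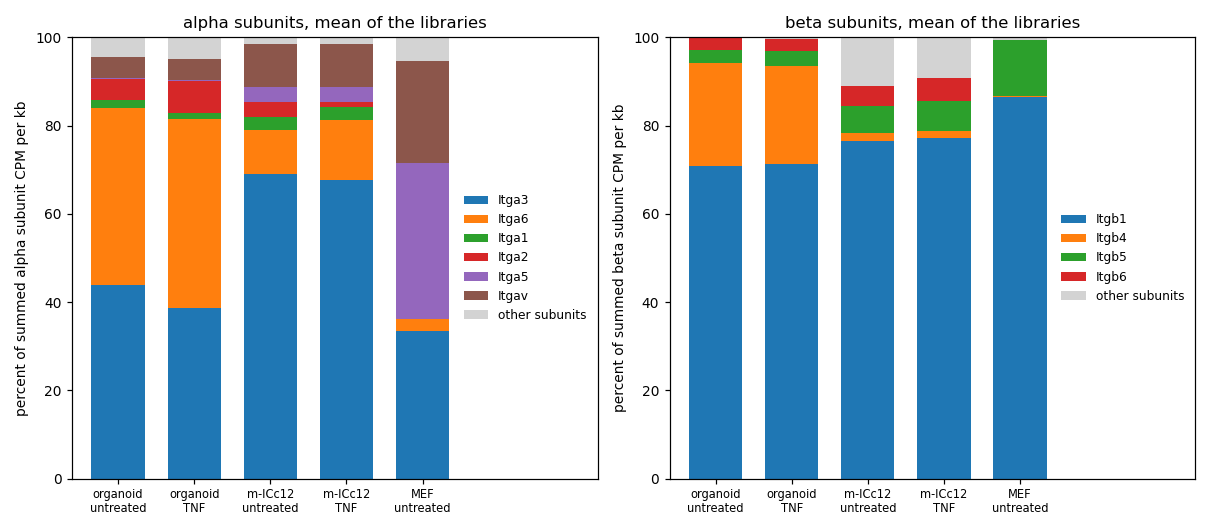
Stacked bars give the mean share, in percent, of each subunit in the summed CPM per kb of all alpha (left) and all beta (right) integrin genes in organoids, m-ICc12 cells (both by label) and MEFs. Itga3 and Itga6 fill most of the alpha bar in organoids, Itga3 in m-ICc12 cells, and Itga5, Itga3 and Itgav in MEFs, while Itgb4 is the second beta subunit in organoids only.

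The effect of the TNF label on the subunits was small except for Itga2. In m-ICc12 cells Itga2 had 45.2, 47.5 and 57.8 CPM in the libraries M1, M2 and M3 labelled untreated and 13.2, 11.9 and 18.1 CPM in those labelled TNF-treated. The groups did not overlap, and the fitted log2 difference was -1.78 ± 0.24 (SE). Without both M1 libraries it was -1.81, and the M1 library labelled TNF-treated held 76 counts of Itga2. In organoids Itga2 was higher in the library labelled TNF-treated in 7 of 9 cultures, with per-culture log2 differences from -0.092 to 1.62 (median 0.62). The largest rise was in the GF culture Z919, from 8.26 to 25.5 CPM, and in the SE cultures Z911 and Z913 the values were 26.8 against 26.5 and 24.4 against 22.9 CPM. The organoid groups overlapped, and the fitted log2 difference was 0.57 ± 0.18 (SE), or 0.63 ± 0.16 (SE) with the culture as a replicate block. The difference between the m-ICc12 and the organoid difference was -2.37 ± 0.35 (SE) on the log2 scale. Since Itga2 was chosen for this contrast, no test is given.

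**Figure D3:**
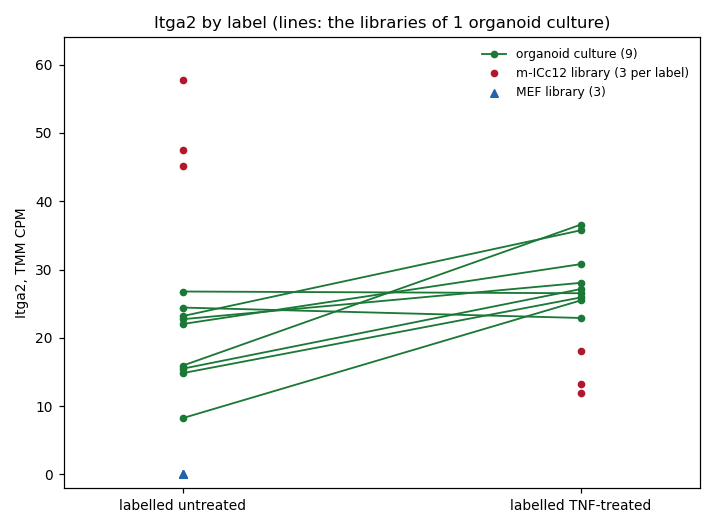
Itga2 in TMM-scaled CPM, with a line from the library labelled untreated to the library labelled TNF-treated of each of 9 organoid cultures, 3 m-ICc12 libraries per label as unjoined points and 3 MEF libraries as triangles. The m-ICc12 points lie at 45.2 or more under the untreated label and at 18.1 or less under the TNF label, while 7 of the 9 organoid lines rise.

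By the adjusted p, 1.39% of the genes tested differed by TNF label in organoids, 0.110% in m-ICc12 cells and 0.159% in the difference between both. By direction these were 0.124% higher and 1.26% lower under the TNF label in organoids, 0.0169% and 0.0927% in m-ICc12 cells, and 0.129% and 0.0303% in the difference. Of the 10 subunits 0, 1 and 1 did so, the 1 being Itga2, which was chosen for this contrast, so that nothing is read from the count. With the culture as a replicate block, Itga2 was also counted in organoids, where 3.28% of the genes then differed, against 0.0506% in m-ICc12 cells and 0.781% in the difference. The other 9 subunits had fitted log2 differences between -0.83 ± 0.81 (SE), for the barely detected Itga5, and 0.29 ± 0.27 for Itgb5 in organoids, and between -0.21 ± 0.17 for Itga3 and 0.33 ± 0.18 for Itga6 in m-ICc12 cells. In each of these 9 the groups overlapped in both kinds of culture. Itgb1 was the steadiest in organoids, with per-culture differences between -0.18 and 0.19. Per kilobase, Itga2 stood at 0.044 ± 0.0031 of Itgb1 (SD, n = 3) in m-ICc12 cells labelled untreated and at 0.013 ± 0.0018 in those labelled TNF-treated, against 0.045 ± 0.014 and 0.068 ± 0.012 (SD, n = 9) in organoids.

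**Figure D4:**
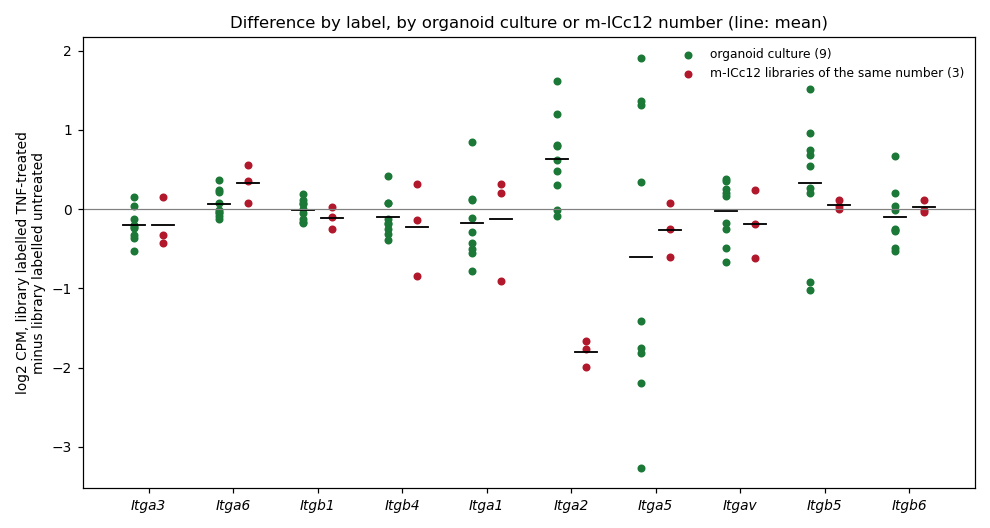
Difference in log2 CPM between the library labelled TNF-treated and the library labelled untreated for 9 organoid cultures (green) and 3 pairs of m-ICc12 libraries of the same number (red), with a line at the mean. The m-ICc12 points of Itga2 lie between -1.99 and -1.67, while 7 of 9 organoid points of Itga2 lie above 0, and the wide scatter of Itga5 in organoids rests on libraries with few counts.

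Whether the donor's facility left a mark on the subunits was tested in the organoid libraries labelled untreated. Between 3 GF and 6 SPF cultures 0.0325% of the genes tested differed (4 of 12315; 0.0244% higher and 0.00812% lower in GF), and none of the 10 subunits did (edgeR, adjusted p = 0.99997 for each of them, 0 with an unadjusted p under 0.05). The largest difference among the well detected subunits was in Itga2, with 15.0 ± 6.89 CPM (SD, n = 3) in GF cultures against 18.1 ± 4.06 (SD, n = 3) in SR and 24.8 ± 1.82 (SD, n = 3) in SE cultures. This gave a log2 difference of GF from SPF cultures of -0.52 ± 0.32 (SE), with overlapping groups. The laminin receptor subunits differed less, with Itgb1 at 0.18 ± 0.12, Itga6 at 0.14 ± 0.12, Itga3 at -0.12 ± 0.14 and Itgb4 at -0.18 ± 0.15 (SE). Between 3 SR and 3 SE cultures 0% of the 12219 genes tested differed, although 486 had an unadjusted p under 0.05, and again none of the subunits (edgeR, adjusted p = 0.99997 for each of them, 0 with an unadjusted p under 0.05). DESeq2 called 8 genes in this comparison, and none of the 10. Itga2 had 15.9, 15.5 and 22.7 CPM in SR cultures and 26.8, 23.2 and 24.4 CPM in SE cultures, so that its groups did not overlap, with a log2 difference of -0.46 ± 0.29 (SE). The other 9 overlapped. These designs of few cultures can leave differences larger than the standard errors above undetected. In simulated counts with 200 genes changed by a log2 of 1, the edgeR test recovered 53.5% of them for GF against SPF. For SR against SE it recovered 39.5%.

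The median coefficient of variation of the 10 was 23.7% over the 9 organoid libraries labelled untreated, and that of the 11825 genes above background there was 21.96%. In m-ICc12 cells labelled untreated the medians were 13.1% and 16.9%, and in MEFs, with 8 of the 10 above background, 18.1% and 13.9%. The least variable in organoids were Itga6 with 11.2% and Itgb1 with 12.2%, and apart from Itga5 the most variable was Itgb5 with 43.8%. Over the 18 organoid libraries, centred by label, Itga6 and Itgb1 were the pair of subunits whose log2 CPM correlated most closely, with a Pearson r of 0.73. The points share libraries and cultures, so this is a description.

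The other 17 integrin subunit genes were mostly low. In the comparison of organoids with m-ICc12 cells 8 of them passed the filter, and 1 was higher and 5 were lower in organoids (edgeR, adjusted p under 0.05). The shares over all genes were 31.6% higher and 29.3% lower. Their median log2 difference was -5.77, or -5.06 with 2 genes at their bound. These 2, Itgam and Itgb2, had no more than 3 counts in every library of 1 kind. They and Itgb3 passed the filter only through the kind where they were high. Their direction was thus fixed in advance. Itgb3, the beta subunit of a vitronectin receptor, had 102 ± 7.51 CPM (SD, n = 3) in m-ICc12 cells, 2.62 ± 0.37 in MEFs (SD, n = 3) and at most 0.14 CPM in organoids (log2 difference of m-ICc12 cells from MEFs 5.23 ± 0.19 (SE), edgeR adjusted p = 1.4e-10). Itga7, a laminin receptor of muscle, had 65.7 ± 10.7 CPM in MEFs and 18 ± 2.07 in m-ICc12 cells (SD, n = 3 each), against 0.22 ± 0.22 (SD, n = 9) in organoids. Itgam, known from myeloid cells, had 5.07 ± 2.86 CPM (SD, n = 9) in organoids and 0 counts in m-ICc12 cells, both labelled untreated, at least 57.9-fold higher. Itgb8, another partner of Itgav, had 21.5 ± 6.32 CPM in m-ICc12 cells and 2.52 ± 1.34 in MEFs (SD, n = 3 each; log2 difference 3.04 ± 0.43 (SE), edgeR adjusted p = 5.1e-05). None of the other subunits differed by TNF label in organoids (0 of 5 tested) or m-ICc12 cells (0 of 6), nor by facility (0 of 3 and 0 of 4). Over all genes the shares were 1.39% and 0.110% by TNF label and 0.0325% and 0% by facility, so nothing is read from these zeros.

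The matrix ligands were mostly lower in organoids. Of 28 listed genes, 23 were tested against m-ICc12 cells, of which 17 were lower and 3 higher in organoids, with a median log2 difference of -4.99 (-4.60 with 2 genes at their bound). Against MEFs 17 of 20 were lower and 3 higher (median -5.82). In each of these comparisons 2 genes were at their bound. They passed the filter only through the kind where they were high, so their direction was fixed in advance. Over all genes 29.3% were lower and 31.6% higher in organoids than in m-ICc12 cells, and 32.6% lower and 34.6% higher than in MEFs. Lamb1, a laminin chain of most basement membranes, had 0.88 ± 0.47 CPM (SD, n = 9) in organoids, 463 ± 41.6 in m-ICc12 cells and 318 ± 56.8 in MEFs (SD, n = 3 each; log2 difference of organoids from m-ICc12 cells -8.99 ± 0.29 (SE), edgeR adjusted p = 2.5e-13). Lama5, the alpha chain of laminin in the adult gut, had 9.69 ± 4.99, 1287 ± 272 and 378 ± 59.9 CPM in the same order. The genes higher in organoids than in m-ICc12 cells were Nid1, a linker of basement membranes, and the laminin-332 chains Lamb3 and Lama3. Nid1 had 14.8 ± 9.26 CPM (SD, n = 9) in organoids, 0.054 ± 0.048 in m-ICc12 cells and 130 ± 25.3 in MEFs (SD, n = 3 each). Lamb3 had 59.8 ± 11.8 CPM (SD, n = 9) in organoids, 25.9 ± 8.65 in m-ICc12 cells and 3.63 ± 1.83 in MEFs (SD, n = 3 each; edgeR adjusted p = 0.00014 for organoids against m-ICc12 cells), and Lama3 was found in organoids at 2.07 ± 2.52 CPM and with no more than 3 counts in every m-ICc12 or MEF library labelled untreated. Against MEFs, Lama3 was no longer past the threshold without MEF library R1 or R3. Collagen chains split the other cells, with Col4a4 at 158 ± 36.3 CPM in m-ICc12 cells and 0.11 ± 0.059 in MEFs, and Col1a1 at 0.82 ± 0.053 in m-ICc12 cells against the MEF level given above.

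The cytoplasmic side showed the same division. Of 29 adaptors and activators tested, 21 were lower and 2 higher in organoids than in m-ICc12 cells (median log2 difference -1.33), and 22 were lower and 4 higher than in MEFs (median -1.61). For comparison, 29.3% of all genes were lower and 31.6% higher than in m-ICc12 cells, and 32.6% lower and 34.6% higher than in MEFs. Against m-ICc12 cells 3 genes, Lims2, Parvg and Tns4, passed the filter only through the kind where they were high. Their direction was thus fixed in advance. The kindlins, which switch integrins to their active form, were exchanged between the kinds. Fermt1, the epithelial kindlin, had 226 ± 12.3 CPM (SD, n = 9) in organoids, 55.7 ± 5.55 in m-ICc12 cells and 0.39 ± 0.12 in MEFs (SD, n = 3 each; log2 difference of organoids from m-ICc12 cells 2.04 ± 0.11 (SE), edgeR adjusted p = 6.8e-11). Fermt2, the kindlin of most other cells, had 0.36 ± 0.22 CPM in organoids, 124 ± 26.5 in m-ICc12 cells and 272 ± 2.02 in MEFs (log2 difference -8.39 ± 0.33 (SE), edgeR adjusted p = 2.2e-12). Vcl, the vinculin of focal adhesions, had 95.5 ± 14.3, 309 ± 37.9 and 1068 ± 181 CPM in the same order, and Flna, an actin crosslinker that binds beta subunits, 142 ± 19.4, 1256 ± 224 and 2967 ± 703 CPM. Tns4, a tensin without an actin-binding region, had 21.4 ± 9.05 CPM in organoids and 0 counts in m-ICc12 cells labelled untreated, at least 244-fold higher.

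The transcripts of the hemidesmosome partners were lower in organoids, where Itgb4 was higher. Counts per gene do not separate isoforms, so they do not give the level of hemidesmosomes. Plec and Dst, the plakins that tie Itgb4 to keratin, and Cd151, a tetraspanin bound to laminin receptors, were all lower in organoids than in m-ICc12 cells (3 of 3 tested, against 29.3% of all genes) and MEFs (4 of 4, with Col17a1, against 32.6% of all genes). Of these, Col17a1 passed the filter only through MEFs. Its call against MEFs was lost with DESeq2, with no filter on low counts and when most single cultures were left out. Dst had 29.8 ± 6.62 CPM (SD, n = 9) in organoids, 186 ± 34.4 in m-ICc12 cells and 350 ± 103 in MEFs (SD, n = 3 each; log2 difference of organoids from m-ICc12 cells -2.62 ± 0.17 (SE), edgeR adjusted p = 1.1e-09). Plec had 170 ± 49.5, 396 ± 129 and 624 ± 110 CPM in the same order. Col17a1, the collagen of the hemidesmosome of skin, had no more than 3 counts in 8 of the 9 organoid libraries labelled untreated and in all 3 m-ICc12 libraries.

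Among these partners, 3 of 25 adaptors differed by TNF label in organoids, each with less transcript under the TNF label, and 4 were lower and 1 higher with the culture as a replicate block, while 0 of 28 differed in m-ICc12 cells. The shares over all genes were 1.39% in organoids, 3.28% there with the block, and 0.110% in m-ICc12 cells. Zyx, a zinc finger protein of focal adhesions, ranged from 124 to 186 CPM in the organoid libraries labelled untreated and from 57.8 to 93.8 in those labelled TNF-treated, without overlap (log2 difference -1.13 ± 0.11 (SE), edgeR adjusted p = 1.0e-07). In m-ICc12 cells Zyx had 129 ± 13.1 and 134 ± 15.1 CPM (SD, n = 3 each), and the difference between both kinds of culture was 1.18 ± 0.21 (SE, edgeR adjusted p = 0.012). It was no longer past the threshold without M1 (adjusted p = 0.052) or without M2 (0.060). Tns3, a tensin, was lower by label in organoids with a log2 difference of -0.59 ± 0.097 (SE, edgeR adjusted p = 0.00037) and Fermt1 with -0.33 ± 0.065 (SE, edgeR adjusted p = 0.0031). None of 17 matrix ligands (1 with the replicate block) and none of 3 hemidesmosome partners did so in organoids.

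For each subunit, the genes outside the 10 with the most similar log2 CPM over all 27 libraries were sought. Itgb1 was closest to Vcl (r = 0.98) and Map4 (r = 0.98), Itgb4 to Ggt6 and Plek2 (r = 0.99 each), Itgb6 to Lmo7 (r = 0.99) and Itga3 to Itgb3 and 1110002E22Rik (r = 0.98 each). Itga2 was closest to Dnajc22 and Tspan8 (r = 0.97 each). The points fall into 3 kinds of culture and share libraries, so these values describe how closely the levels of a pair follow the kind of culture. Over the 18 organoid libraries alone, Itga2 was closest to Ccnd2 and Prickle4 (r = 0.78 each).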

How the data were processed

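RNA of 27 libraries was sequenced after poly-A selection with a kit labelled as stranded. The paper names the TruSeq RNA Sample Prep Kit v2 and does not say whether strand was kept. The authors trimmed reads with Trimmomatic, aligned them to GRCm38 with STAR and deposited, per library, whole-number read counts per Ensembl gene, not normalized. The sources name different STAR versions and different counters (featureCounts in the submitters' processing notes), and the use of strand and the treatment of multi-mapped reads are not given in the sources used here. The list of 10 genes, the other lists and the tests were chosen with earlier results of these data known. Groups follow the sample labels.

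Genes that reached 10 counts in 50% or more of the libraries of any compared group were tested with the quasi-likelihood test of edgeR 4.0.16 in R 4.3.3, with TMM scaling and Benjamini-Hochberg adjustment over all genes tested, and values were called at an adjusted p under 0.05. Signs are the first group minus the second. Levels are CPM with TMM factors over all 27 libraries, and CPM per kb uses the union of annotated exons, which counts exons of rare isoforms and so lowers some levels. Intervals of counting were not given, since the spread between libraries exceeds them. The floor was 3 counts per library. Exons of Itga1, Itgav and Itgb4 overlap other annotated genes, none of which was in the count tables. Named were all 10 subunits, up to 3 genes with the smallest p per list, direction and comparison, the label check genes Nfkbia, Nfkb2 and Tnfaip3, known partners in ratios, and the 2 genes with the highest Pearson r of log2 CPM (prior count 2). Of the genes this rule names, some are not reported here. Marker genes, genes with an extreme share of counts and further levels of listed genes were added after their values were seen.

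Libraries of an organoid culture came from the same mouse, and their deviations from the group means correlated with r between 0.072 and 0.24 (9 cultures). In m-ICc12 cells r lay between -0.00080 and 0.093 (3 pairs of the same number), with a mean of 0.041 against -0.020 between libraries of other numbers. With 3 pairs, whether these share more than a number cannot be told. The scripts were tested on simulated counts. Alternatives were DESeq2 1.42.0, no filter on low counts, total counts without TMM, leaving out each culture, the replicate block, the 6 SPF cultures alone and the other library of each culture. Promoter windows were read from RefSeq on GRCm38.p6 with Python 3.11.15, pandas 2.3.3 and numpy 2.4.6, and figures were drawn with matplotlib 3.10.9.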

Additional observations from a re-analysis of the deposited data

Results flagged for a closer look

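The log2 difference of Itga2 by TNF label differed between the kinds of culture, by -2.37 for m-ICc12 cells minus organoids. Itga2 was lower in each of 3 m-ICc12 libraries labelled TNF-treated than in any labelled untreated, and higher in 7 of 9 organoid cultures, and since it was chosen for this contrast no p is given.

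For Zyx the same difference was 1.18 (edgeR adjusted p = 0.012), from 151 ± 24.5 to 69.4 ± 13 CPM (SD, n = 9 each) in organoids and from 129 ± 13.1 to 134 ± 15.1 CPM (SD, n = 3 each) in m-ICc12 cells. Lars2 held 13.5% of the counts in M1 and 4.44% in M3 labelled TNF-treated, and at most 0.158% in the other m-ICc12 libraries, and the part of this share in both differences was not tested. Without M1 the difference of Zyx was no longer past the threshold (adjusted p = 0.052).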

How the results depend on the processing

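Of the repeated counts of called genes, 81 stayed within 1.5 times the reported count and 21 did not, and of the repeated fold changes of the 10 subunits 986 moved by less than their standard error or, between facilities, kept their side of the threshold, 33 moved further and 1 turned. The one that turned was Itga2 between organoids and m-ICc12 cells, with a log2 difference of 0.99 in the other library of each culture. The means of Itga6, whose ranges overlapped, changed order there too and are not counted as turned. With DESeq2 46 genes differed by TNF label in m-ICc12 cells (edgeR 13), 74 in the difference between both kinds (21), 21 between GF and SPF (4) and 8 between SR and SE cultures (0). With no filter on low counts the counts were 30 for the TNF label in m-ICc12 cells and 5 for SR against SE. With the culture as a replicate block 397 genes differed by TNF label in organoids (168 without, 163 shared), 6 in m-ICc12 cells and 103 in the difference between both, and Itga2 in organoids was the 1 subunit whose call changed. With the 6 SPF cultures only the difference gave 7 genes. SR against SE gave 1 gene without TMM and 1 with the other library of each culture. Leaving out 1 culture at a time gave 15 to 93 genes for the TNF label in m-ICc12 cells (93 without M2), 11 to 40 for the difference (11 without M2, 40 without M3), 2 to 5 for GF against SPF (2 without Z917, Z918 or Z919) and 0 to 35 for SR against SE (35 without Z909, 6 without Z912, 1 without Z908). The cause of these shifts was not tested. An exchange of the treatment within pairs negates each TNF contrast by construction and was not run. Depth limits Itga5 in organoids, Itga2 and Itgb6 in MEFs and the M1 library labelled TNF-treated.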
